A study of Mus musculus with 8 samples.

Results

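A set of 10 liver genes that Wnt signaling places around the central vein, or that report on that signaling, were read in liver RNA of *Agpat3* wild-type (WT) and knockout (KO) mice. They are *Glul*, *Oat*, *Slc1a2*, *Rhbg*, *Lgr5*, *Axin2*, *Tbx3*, *Lhpp*, *Gulo* and *Cdh1*. They were chosen by name, and every probe whose transcript accession belongs to 1 of these 10 genes was taken. The genes have 15 probes on the array, of 56605, and 9 of the 10 genes were bright enough to test, out of 14067 genes tested in all. AGPAT3 is the acyltransferase that puts docosahexaenoic acid into phospholipids, and the study asked how its loss alters hepatic transcription. Its comparison was that of livers of 4 *Agpat3* WT with 4 *Agpat3* KO mice, all males on a C57BL/6 background and 10 weeks old, with 1 one-color Agilent array (Cy3 dye) per mouse. The KO was of the whole animal and not of hepatocytes alone, so other cells of the liver lacked the gene too.

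Hepatocytes differ along the lobule, the repeating unit of the liver. Blood enters at the portal tract and leaves at the central vein, whose endothelial cells secrete Wnt and R-spondin proteins. Wnt ligands bind Frizzled and LRP receptors, R-spondins bind LGR receptors and protect Frizzled from the ligases ZNRF3 and RNF43, and the outcome is that beta-catenin escapes its destruction complex and acts with TCF/LEF factors on target genes. In hepatocytes next to the vein this signaling keeps on a pericentral program, which includes glutamine synthesis, and restrains a periportal program, which includes the urea cycle. *Cdh1*, which encodes E-cadherin, is the exception among the 10 genes, since it is known from periportal hepatocytes and bile duct cells. The arrays measured RNA of whole tissue, so neither the position of any transcript in the lobule nor a difference between fewer pericentral cells and less RNA per cell can be read from them.

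A TCF/LEF factor binds a short core, and the letters CTTTGAA or CTTTGAT which share their first 6 letters, were searched on both strands of the 250 bases before the start of each gene, in promoters taken from RefSeq (GRCm38.p6). The promoter table held 4 of the 10 genes, *Glul*, *Oat*, *Slc1a2* and *Axin2*, and 1 of these held a match. Over all 32851 promoters of the table, 7.48% held at least 1. The promoter with the match is that of *Slc1a2*, and it is shown because it holds the match. It lies at chr2:102706188-102706437 on the plus strand, with the match, a CTTTGAT read on the opposite strand and near the upstream end of the window, in capitals.

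*Slc1a2* promoter: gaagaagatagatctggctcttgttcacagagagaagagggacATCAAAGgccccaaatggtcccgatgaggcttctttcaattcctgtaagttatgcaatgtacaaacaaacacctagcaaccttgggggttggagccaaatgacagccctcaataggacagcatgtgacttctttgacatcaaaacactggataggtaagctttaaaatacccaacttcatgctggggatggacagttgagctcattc

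A match of 7 letters is a description of the sequence and not a binding site, and enhancers farther from the start were not examined.

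Each value is the log2 of a probe's processed signal minus that of the array's 75th percentile, and levels are not compared between genes, since probes differ in brightness for the same amount of RNA. A log2 fold change is the KO mean minus the WT mean. A gene was read from its brightest probe. It was called changed if the genotypes differed by over 1.5-fold with an adjusted p under 0.2 (limma, Benjamini-Hochberg over all 29069 probes tested). By this rule 1.01% of the 14067 genes were higher in KO liver and 0.754% were lower. *Agpat3* itself fell in the KO, from a WT mean of 5.75 to a KO mean of -0.38 (log2 fold change -6.12, adjusted p = 4.47e-07 by limma). All 8 arrays lay on 1 slide, with WT in row 1 and KO in row 2, so row and genotype cannot be told apart. Replicates 1 to 4 of each genotype lay in slide columns 1 to 4. The labels number the livers but do not say whether mice shared a litter or were processed together, so the p-values measure the spread between these samples.

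None of the 9 genes tested was called in either direction by limma or by the methods' t-test, an unpaired test that called 0.988% of all genes at the same thresholds. *Slc1a2* alone had an unadjusted limma p under 0.05, a level that 13.9% of all genes reached. The log2 fold changes ran from -0.65 for *Lgr5* to 0.06 for *Glul*, with a median of -0.16 against -0.03 over all genes tested. Of the 9 genes, 8 had a negative log2 fold change, as did 57.9% of all genes. None of the 9 was called with slide column 1 left out either, an alternative chosen after seeing the data that drops replicate 1 of both genotypes.

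**Figure D1:**
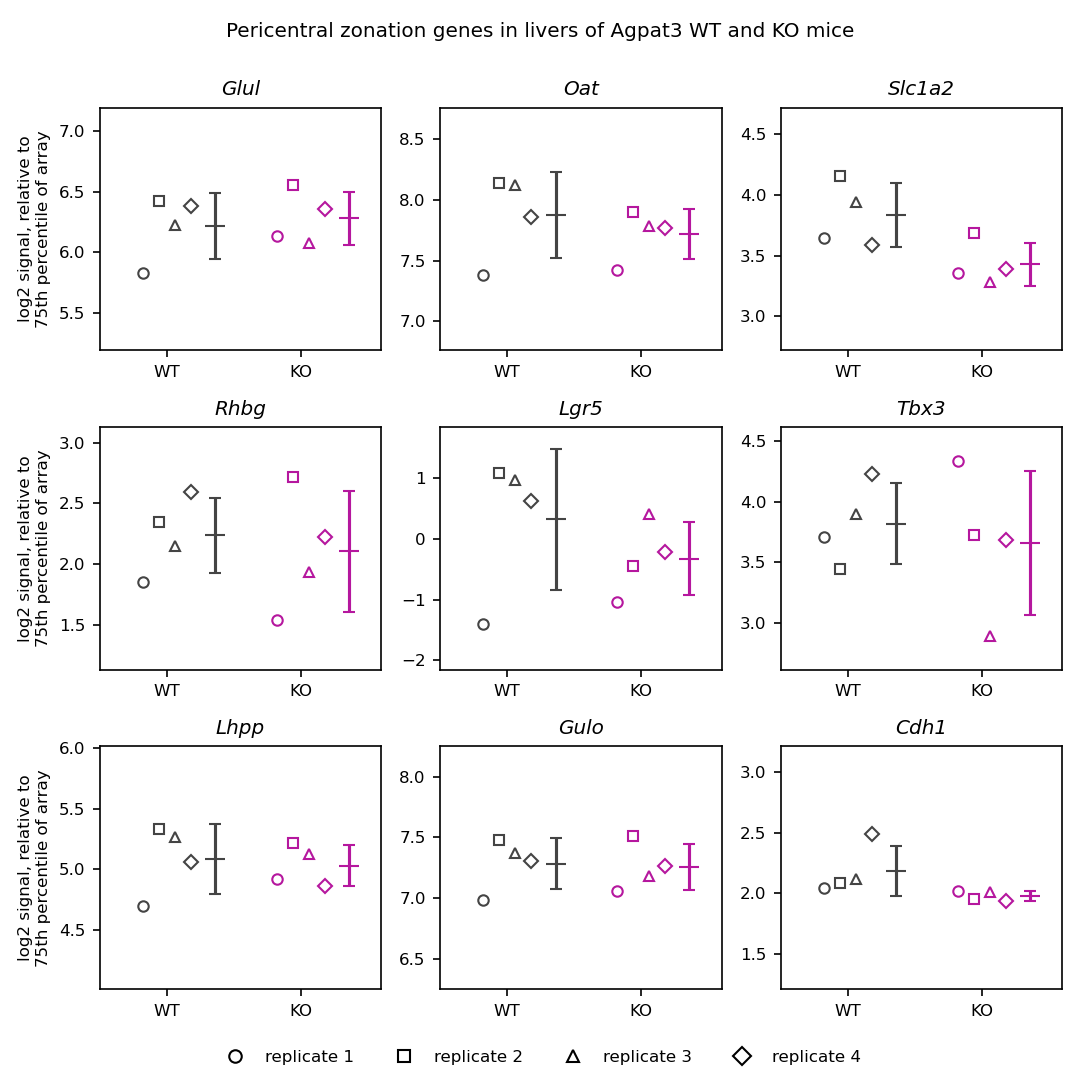
Log2 signal, with the array's 75th percentile at 0 (vertical axis), in 4 WT and 4 KO livers, with a panel for each of the 9 genes tested. Symbols mark the replicate number, and the bar beside them is the mean ± SD of the genotype. The panels span 2 log2 units except that of *Lgr5*, which spans 4. The groups overlap in 8 panels, and in that of *Cdh1* the 4 KO values, 1.93 to 2.02, lie under the 4 WT values, 2.04 to 2.49.

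Glutamine synthetase, encoded by *Glul*, joins ammonia to glutamate and is the classical marker of the hepatocytes that ring the central vein. *Glul* signals were 5.83, 6.43, 6.23 and 6.39 in WT replicates 1 to 4 and 6.14, 6.55, 6.08 and 6.36 in KO replicates 1 to 4. The groups overlapped throughout, with the lowest value in a WT mouse and the highest in a KO mouse. The log2 fold change was 0.06 (SE 0.16, adjusted p = 0.901 by limma, n = 4 per genotype), and its 95% confidence interval, -0.30 to 0.42, lay inside the 1.5-fold limits on both sides. The other 2 probes of *Glul* gave log2 fold changes of 0.03 (adjusted p = 0.956 by limma) and 0.13 (adjusted p = 0.773). A loss or gain of *Glul* RNA as large as 1.5-fold was thus outside the interval of each of its 3 probes.

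*Oat* encodes ornithine aminotransferase, the mitochondrial enzyme that turns ornithine toward glutamate. *Oat* signals were 7.38, 8.14, 8.12 and 7.86 in WT mice and 7.42, 7.90, 7.79 and 7.77 in KO mice. Replicate 1 was the lowest mouse of both genotypes, and the 3 other KO mice lay below WT replicates 2 and 3. KO minus WT was -0.16 on the log2 scale (SE 0.18, adjusted p = 0.767 by limma), and it ranged from -0.32 without WT replicate 1 to -0.06 without KO replicate 1.

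*Slc1a2* and *Rhbg* encode transporters of the substrates of glutamine synthetase, namely the glutamate transporter GLT-1 and the ammonia channel RhBG. *Slc1a2* signals were 3.65, 4.15, 3.94 and 3.59 in WT mice and 3.36, 3.69, 3.29 and 3.39 in KO mice. KO replicate 2, the highest KO mouse, lay above WT replicates 1 and 4, so the groups overlapped, while the other 3 KO mice lay below every WT mouse. This gave a log2 fold change of -0.40 (SE 0.15, 95% confidence interval -0.73 to -0.07), a KO level 0.757 of that in WT. The unadjusted p was 0.0238 and the adjusted p 0.289 (limma), and over the other settings tried the adjusted p ranged from 0.182 to 0.574. KO minus WT was negative in each of the 4 slide columns, between -0.65 and -0.20. The TCF/LEF core shown above lies in the promoter of this gene, and nothing on the arrays bears on its use.

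*Rhbg* signals were 1.86, 2.35, 2.15 and 2.59 in WT mice and 1.54, 2.72, 1.93 and 2.23 in KO mice. The KO mice spanned the whole WT range and more. The log2 fold change of -0.13 had an SE of 0.26 (adjusted p = 0.866 by limma), and its interval of -0.72 to 0.45 did not exclude a 1.5-fold loss.

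*Lgr5* encodes an R-spondin receptor and is itself a target of Wnt signaling in pericentral hepatocytes. Its signals were -1.40, 1.09, 0.98 and 0.63 in WT mice and -1.04, -0.45, 0.41 and -0.21 in KO mice. WT replicate 1 was the lowest of all 8 mice, and the other 3 WT mice lay above all 4 KO mice. The log2 fold change was -0.65 (SE 0.56, adjusted p = 0.678 by limma), with an interval of -1.93 to 0.64. No other gene of the 9 varied as much between mice of 1 genotype: the SD within genotypes was 0.93, at percentile 99.3 of all genes tested, against a median of 0.16. Without WT replicate 1 the log2 fold change was -1.22 (adjusted p = 0.206 by limma), and it was -0.39 without WT replicate 2, -0.41 without KO replicate 1 and -0.43 without WT replicate 3, so its size depended on single mice. Without slide column 1 it was -0.98 (adjusted p = 0.267).

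*Axin2* encodes a scaffold of the destruction complex and is a standard readout of Wnt signaling. Neither of its 2 probes was well above background on any of the 8 arrays, so it was not tested and no fold change is given. The signals of its brighter probe, -6.23 to -4.06 in WT mice and -6.06 to -4.23 in KO mice, are bounds only.

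*Tbx3* encodes a T-box transcription factor that acts downstream of beta-catenin in the liver. *Tbx3* signals were 3.71, 3.45, 3.90 and 4.23 in WT mice and 4.34, 3.72, 2.89 and 3.68 in KO mice. The highest and the lowest value both belonged to KO mice, replicates 1 and 3. On average *Tbx3* differed by -0.16 on the log2 scale (SE 0.29, adjusted p = 0.857 by limma), it was -0.21 (adjusted p = 0.824) at the second probe, and without KO replicate 3 the first became 0.10 (adjusted p = 0.900). The direction therefore rested on 1 mouse.

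*Lhpp* encodes a histidine and pyrophosphate phosphatase, and *Gulo* encodes gulonolactone oxidase, which makes vitamin C in mice. *Lhpp* signals were 4.70, 5.33, 5.27 and 5.06 in WT mice and 4.92, 5.22, 5.12 and 4.86 in KO mice. *Gulo* signals were 6.98, 7.48, 7.37 and 7.30 in WT mice and 7.06, 7.52, 7.19 and 7.26 in KO mice. For *Lhpp* the KO mice lay inside the WT range, and for *Gulo* the groups covered almost the same range. The log2 fold change of *Lhpp* was -0.06 (SE 0.15, adjusted p = 0.910 by limma, interval -0.40 to 0.29), and its second probe gave 0.04 (adjusted p = 0.939). That of *Gulo* was -0.03 (SE 0.13, adjusted p = 0.949 by limma, interval -0.33 to 0.28). Both intervals lay inside the 1.5-fold limits.

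*Cdh1*, the periportal and biliary gene among the 10, gave 2.04, 2.09, 2.12 and 2.49 in WT mice and 2.02, 1.95, 2.01 and 1.93 in KO mice. All 4 KO mice lay below all 4 WT mice, a pattern seen in 5.81% of all genes, while 3.85% had all KO mice above all WT mice. The groups nearly touched, since the lowest WT value was 2.04 and the highest KO value 2.02. Its log2 fold change was -0.20 (SE 0.10, interval -0.44 to 0.03), with an unadjusted p of 0.0832 and an adjusted p of 0.450 (limma), and without WT replicate 4 it was -0.10. Of the 4 bile duct markers tested, 3 had a negative log2 fold change and 1, *Krt19*, a positive one (0.17, adjusted p = 0.839 by limma), with a median of -0.20 and a range of -0.64 to 0.17.

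**Figure D2:**
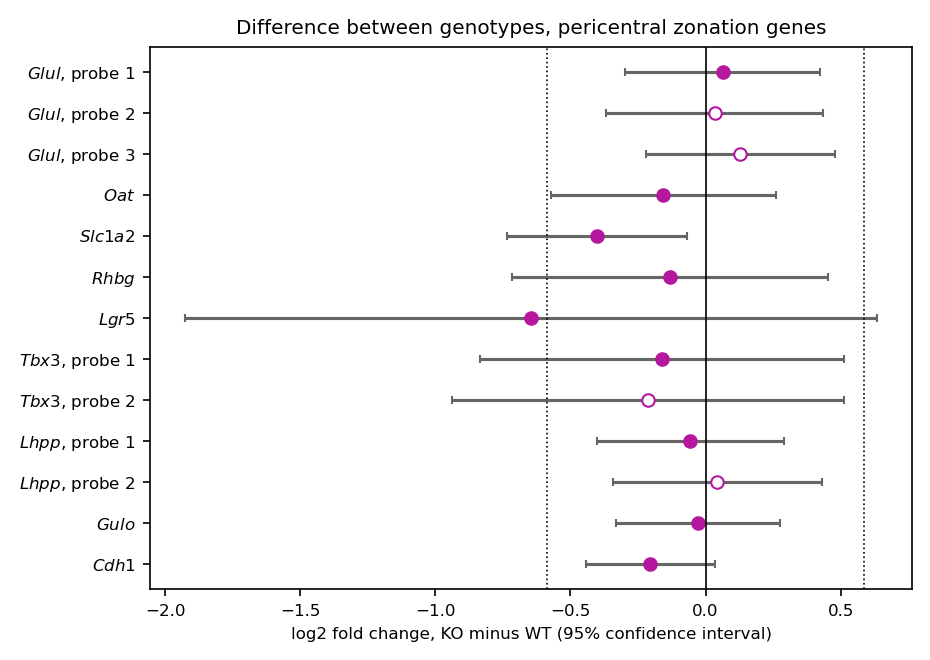
Log2 fold change, KO minus WT (horizontal axis), with its 95% confidence interval for each of the 13 probes tested, 4 mice per genotype. Filled points are the brightest probe of a gene, open points its other probes, and dotted lines mark a 1.5-fold difference either way. The interval of *Slc1a2*, -0.73 to -0.07, is the 1 interval that leaves out 0, and that of *Lgr5*, -1.93 to 0.64, is the widest of the 13.

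Many of the 9 genes ranked the mice of 1 genotype alike. WT replicate 1 was the lowest WT mouse for 7 of the 9, namely *Glul*, *Oat*, *Rhbg*, *Lgr5*, *Lhpp*, *Gulo* and *Cdh1*, whereas it was the lowest for 32.2% of all genes. WT replicate 2 was the highest for 6 of the 9 and for 19.7% of all genes. Among KO mice, replicate 1 was the lowest for 4 of the 9 and for 34.5% of all genes. KO replicate 2 was the highest for 6 of the 9, *Glul*, *Oat*, *Slc1a2*, *Rhbg*, *Lhpp* and *Gulo*, and for 17.2% of all genes. In the median over the 9 genes, WT replicate 1 lay 0.38 under its genotype's mean on the log2 scale (a deviation of -0.38), and KO replicate 2 lay 0.19 above its own.

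WT replicate 1 also stood out in some of the other lists, and KO replicate 2 in that of the other pericentral genes. WT replicate 1 was the lowest WT mouse for 18 of 25 other pericentral genes, 10 of 11 general Wnt targets and 9 of 22 periportal genes, and for 1 of 11 hepatocyte markers. It was also the lowest for 8 of 8 markers of Kupffer cells, the macrophages of the liver, and KO replicate 1 was the lowest KO mouse for the same 8 of 8. The summed signal of the Kupffer markers, in units of the 75th percentile, was 92.2 to 151 (92.2, 118, 124 and 151 in replicates 1 to 4) in WT mice and 78.0 to 129 (78.0, 121, 129 and 116) in KO mice, lowest in replicate 1 of both, and all 8 markers were well above background on every array. Endothelial markers were lowest in replicate 1 for 4 of 10 in WT and 7 of 10 in KO mice. KO replicate 2 was the highest KO mouse for 13 of 25 other pericentral genes, 3 of 11 general Wnt targets and 0 of 8 Kupffer cell markers. Replicate 1 of both genotypes lay in slide column 1. The part of slide column, of Kupffer cell content and of other differences between the mice in this pattern was not tested.

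**Figure D3:**
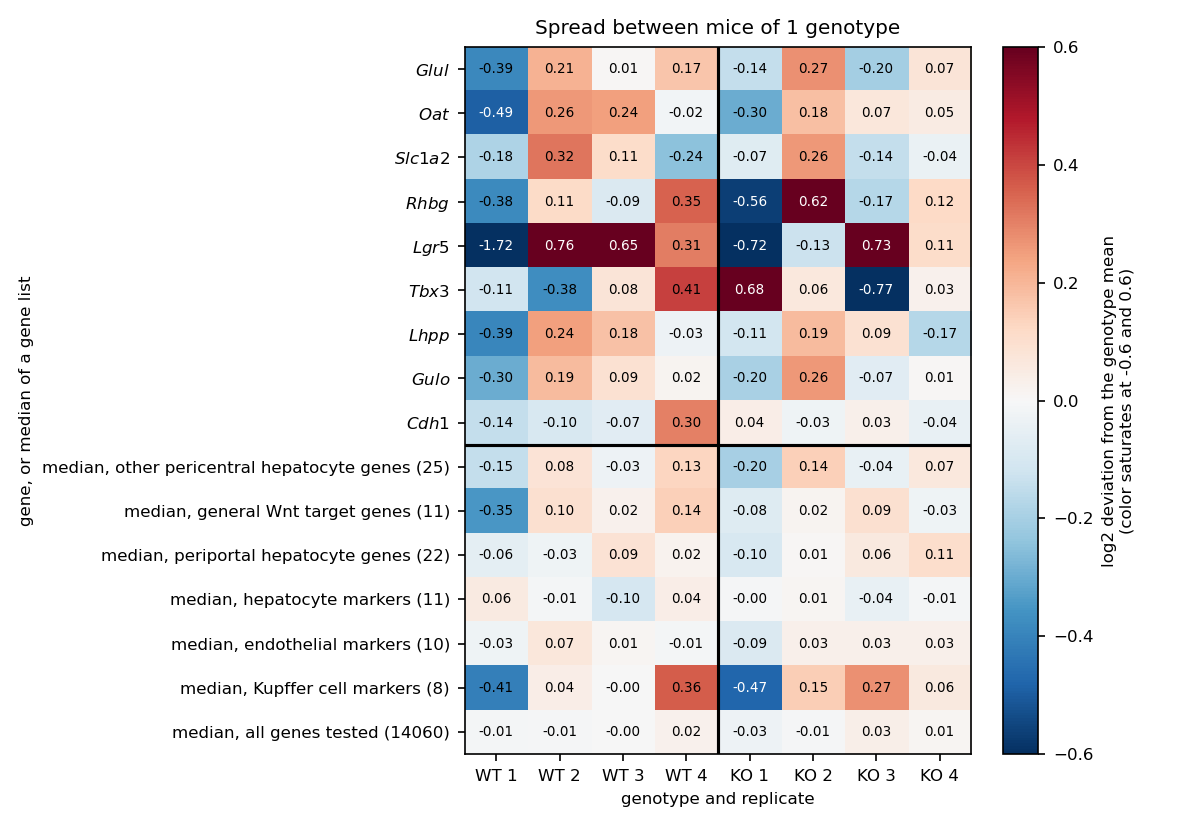
Deviation of each mouse from the mean of its genotype, in log2 units, for the 9 genes tested and, under the line, the median deviation over the genes of 6 lists and over all genes (number of genes in parentheses). Columns are the 4 WT and 4 KO mice, and blue marks values under the mean. WT 1 is blue for all 9 genes and for the Kupffer cell markers (-0.41), while the hepatocyte markers stay near 0 (0.06).

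The likeness of other genes to *Glul* over the 8 mice was described by Pearson's r of log2 signals among 13550 genes well above background on every array. The 3 genes most like it were *Grm5* (r = 0.973), *Dock3* (r = 0.972) and *Pigs* (r = 0.968). Among the 9 genes, *Gulo* (0.890) and *Rhbg* (0.803) were most like *Glul*, followed by *Oat* (0.679), *Lhpp* (0.643), *Lgr5* (0.489), *Slc1a2* (0.319), *Cdh1* (0.126) and *Tbx3* (0.124). Without the 2 mice farthest from the median of *Glul*, r was 0.723 for *Gulo*, 0.819 for *Rhbg*, 0.513 for *Oat* and 0.170 for *Lhpp*, so that of *Lhpp* rested on those mice. Without the same mice r was 0.575 for *Slc1a2*, 0.427 for *Lgr5*, 0.400 for *Cdh1* and 0.213 for *Tbx3*. The values of all genes of a mouse come from 1 array, and these r carry no test.

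The parts of the Wnt pathway were read from 5 lists of 71 distinct genes, of which 50 were tested and none was called. Over all genes 1.01% were called higher and 0.754% lower, so few calls are due among 50 genes in any case. The median log2 fold change of the 50 was -0.07, 33 were negative and 17 positive (57.9% of all genes were negative), and 9 had an unadjusted limma p under 0.05 (13.9% of all genes). Listed after their values were seen, these 9 were *Wnt5b* (0.51), *Lrp5*, *Ryk*, *Dkk3*, *Gsk3b* (-0.35), *Dvl3* (-0.34), *Bcl9* (-0.36), *Pygo2* and *Hnf4a*. Further probes of *Gsk3b* went the other way, at 0.05 (adjusted p = 0.850 by limma) and 0.16 (adjusted p = 0.776). The further probe of *Dvl3* gave -0.18 (adjusted p = 0.657 by limma) and that of *Wnt5b* 0.40 (adjusted p = 0.276). Of the 50, 4 had all KO mice below all WT mice (5.81% of all genes), namely *Lrp5*, *Ryk*, *Axin1* and *Pygo2*, and 0 had them above (3.85% of all genes).

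Of the ligands and the genes of their export, 12 of 15 were tested. *Wnt2* and *Wnt9b*, which central vein endothelium secretes, had log2 fold changes of 0.14 (SE 0.15, adjusted p = 0.735 by limma) and -0.13 (SE 0.20). *Rspo3*, the R-spondin of the same cells, gave 0.52 to 0.66 in WT mice and 0.45 to 0.64 in KO mice, a log2 fold change of -0.01 (SE 0.07, adjusted p = 0.974). The groups overlapped for each of the 3 genes, and *Rspo3* had the narrowest spread of them.

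Of the receptors, 11 of 17 were tested. *Lgr4*, the R-spondin receptor related to *Lgr5*, had a log2 fold change of 0.05, *Fzd7* of 0.01 and *Lrp6* of -0.13 (adjusted p 0.653 to 0.993 by limma). Among 8 of 18 inhibitors tested were *Znrf3* (-0.07) and *Rnf43* (-0.06), the ligases that remove Frizzled from the membrane, *Notum* (-0.12), which inactivates Wnt ligands, and *Nkd1* (0.05), which binds Dishevelled, with adjusted p of 0.736 to 0.919. The groups overlapped for each of these 7 genes. At further probes of *Znrf3* the log2 fold change was -0.21 (adjusted p = 0.682 by limma) and -0.42 (unadjusted p = 0.0316, adjusted p = 0.320 by limma). The groups overlapped at these probes too. Named after their values were seen, the receptor genes *Lrp5* (-0.17, adjusted p = 0.360 by limma) and *Ryk* (-0.24, adjusted p = 0.213) had all KO mice below all WT mice. At the second probe of *Ryk* the groups overlapped (-0.11, adjusted p = 0.523). The inhibitor *Dkk3*, also named after its values were seen, had a log2 fold change of -0.44 (adjusted p = 0.346) with groups that overlapped. None of these 3 genes was called.

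Inside the cell, all 9 genes listed with the destruction complex were tested, among them the Dishevelled genes *Dvl1*, *Dvl2* and *Dvl3*. Of the genes listed with beta-catenin and its nuclear partners, *Hnf4a* among them, 10 of 12 were tested. *Ctnnb1*, which encodes beta-catenin, ran from 2.90 to 3.07 in WT mice and from 2.95 to 3.09 in KO mice (log2 fold change 0.05, SE 0.07, adjusted p = 0.813 by limma). *Apc* had a log2 fold change of -0.10 (adjusted p = 0.808) and *Tcf7l2* of -0.23 (adjusted p = 0.742). *Axin1* had a log2 fold change of -0.13 (adjusted p = 0.586 by limma), with all KO mice, 1.55 to 1.63, just under all WT mice, 1.64 to 1.96. At the second probe of *Axin1* the groups overlapped (-0.05, adjusted p = 0.850). *Hnf4a*, the hepatocyte factor that opposes Wnt signaling in zonation, gave 7.33 to 7.77 in WT mice and 7.17 to 7.38 in KO mice (log2 fold change -0.33, SE 0.12, unadjusted p = 0.0211, adjusted p = 0.276 by limma). Its groups overlapped and it was not called, and its second probe gave -0.09 (adjusted p = 0.845 by limma). Named after its values were seen, *Pygo2* had all KO mice below all WT mice (-0.20, adjusted p = 0.210 by limma). The second probe of *Pygo2* gave -0.38 (adjusted p = 0.329), with groups that overlapped, and the gene was not called.

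Of the general Wnt target genes, 11 of 12 were tested and none was called, with a median log2 fold change of -0.04. *Sp5*, a feedback target, had a log2 fold change of -0.39 (adjusted p = 0.485 by limma). *Tnfrsf19* ran from -0.21 to 0.03 in WT mice and from 0.23 to 0.47 in KO mice, so the groups were apart. Its log2 fold change was 0.37 (SE 0.09, adjusted p = 0.133 by limma), a fold change of 1.29 that is under the limit of 1.5. The second probe of *Tnfrsf19* gave 0.56 (adjusted p = 0.333), also without overlap. *Ccnd1*, the cyclin D1 gene, named here after its values were seen, had the most positive log2 fold change of the list, 0.93 (SE 0.31, adjusted p = 0.256 by limma), with groups that overlapped. The list shares *Znrf3*, *Rnf43*, *Notum* and *Nkd1* with the inhibitors.

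All 25 other pericentral genes were tested, and their median log2 fold change was -0.02 (12 positive, 13 negative). Among them 1 gene was called higher and 1 lower, against 1.01% and 0.754% of all genes. *Cldn2*, a claudin of tight junctions, rose in KO liver. Its signals were 2.48, 2.51, 2.30 and 2.43 in WT mice and 3.09, 3.02, 3.07 and 2.98 in KO mice, a log2 fold change of 0.61 (SE 0.07, fold change 1.53, adjusted p = 0.0143 by limma). The groups lay far apart, and the second probe of *Cldn2* gave 0.51 (adjusted p = 0.0846), also without overlap. The fold change sits at the limit of 1.5, and the call was lost without WT replicate 3 (0.57).

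*Sult5a1*, a sulfotransferase, fell in KO liver. Its signals were 2.19, 1.49, 1.78 and 2.50 in WT mice and 0.08, 0.80, 0.58 and 1.51 in KO mice, a log2 fold change of -1.25 (SE 0.32, adjusted p = 0.156 by limma). KO replicate 4 lay level with the lowest WT mouse, so the groups overlapped, and the second probe gave -0.90 (adjusted p = 0.312). The call of *Sult5a1* was lost without any 1 of 6 mice, KO replicates 1, 2 and 3 and WT replicates 1, 3 and 4 (log2 fold changes -1.32 to -1.03, adjusted p 0.214 to 0.286 by limma), and also without slide column 1 (-0.96, adjusted p = 0.378). *Cyp2e1*, *Cyp1a2* and *Cyp2a5*, cytochrome P450 genes of the pericentral zone, had log2 fold changes of -0.12, 0.11 and -0.14 (adjusted p 0.610 to 0.876 by limma), and *Lect2*, a secreted target of beta-catenin, of 0.13 (adjusted p = 0.724). The 2 called genes of 25 thus moved in opposite directions.

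All 22 periportal genes were tested, with a median log2 fold change of -0.08 (6 positive, 16 negative). *Etnppl*, which encodes ethanolamine-phosphate phospho-lyase, fell in KO liver. Its signals were 6.03, 6.14, 6.12 and 5.77 in WT mice and 5.15, 5.29, 5.62 and 5.60 in KO mice, a log2 fold change of -0.60 (SE 0.13, adjusted p = 0.115 by limma). The groups were apart, and the second probe gave -0.68 (adjusted p = 0.206, with groups that overlapped). Its call was lost without KO replicate 1 or 2 or WT replicate 1, 2 or 3 (adjusted p 0.205 to 0.273 by limma), and also without slide column 1 (-0.51, adjusted p = 0.313). *Gls2* (-0.15), *Hal* (-0.05), *Pck1* (-0.01) and *Arg1* (-0.04), genes of glutamine and histidine breakdown, gluconeogenesis and the urea cycle, were not called (adjusted p 0.536 to 0.992 by limma). *Cyp2f2*, a periportal cytochrome P450, had a log2 fold change of -0.32 (unadjusted p = 0.0158, adjusted p = 0.256), and its highest KO value, 9.04, was just above the lowest WT value, 9.03.

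**Figure D4:**
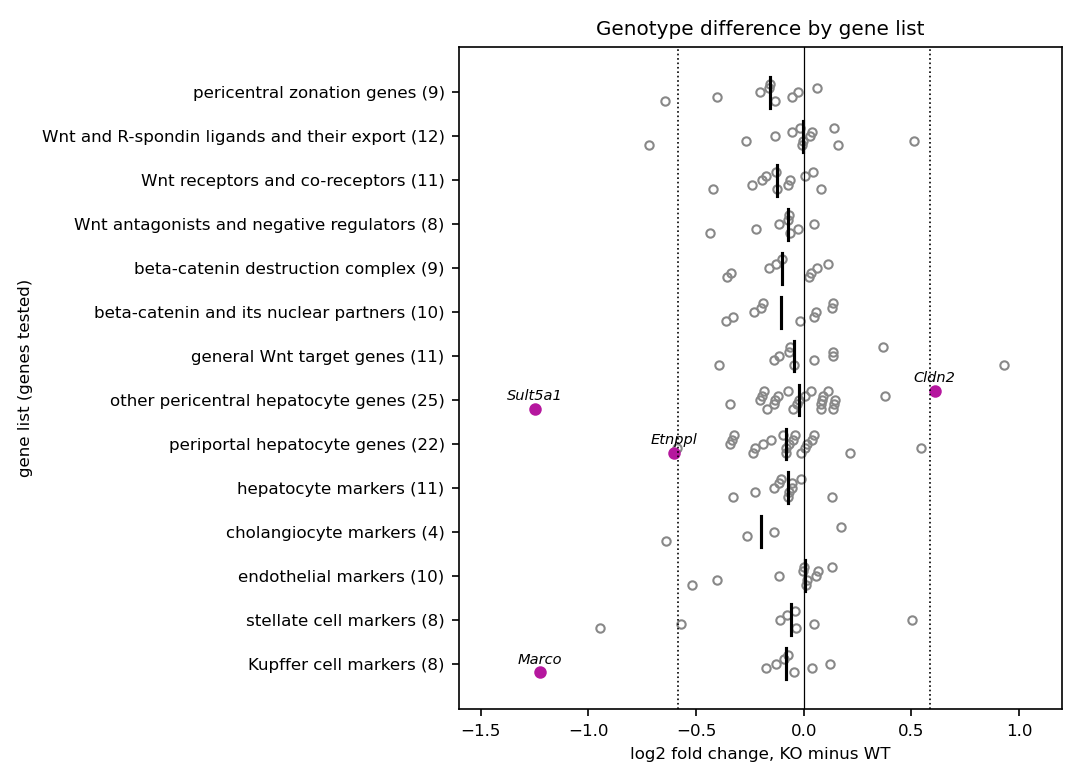
Log2 fold change, KO minus WT (horizontal axis), of each gene tested, by list (vertical axis, number of genes tested in parentheses). Filled points are called genes, open points genes not called, black bars the median of the list, and dotted lines a 1.5-fold difference either way. The 9 zonation genes have a median of -0.16 and no filled point, and the called genes of the other lists are *Cldn2* (0.61), *Sult5a1* (-1.25), *Etnppl* (-0.60) and *Marco* (-1.22).

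The tissue matched its label by its markers. *Alb*, the albumin gene, was at 10.42 to 10.62 in WT mice and at 10.45 to 10.62 in KO mice (log2 fold change -0.01, adjusted p = 0.969 by limma), and 0 of 11 hepatocyte markers were called. No marker was called among 4 of 8 cholangiocyte genes tested, 10 endothelial genes and 8 stellate cell genes. Of 8 Kupffer cell markers, *Marco*, a scavenger receptor, fell in KO liver (log2 fold change -1.22, SE 0.25, adjusted p = 0.0981 by limma), with all KO mice below all WT mice. The call of *Marco* was lost without KO replicate 2 (adjusted p = 0.211 by limma) or WT replicate 3 (adjusted p = 0.210). It was also lost with no filter on dim probes (adjusted p = 0.233). The other 7 Kupffer cell markers had log2 fold changes between -0.17 and 0.12.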

How the data were processed

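Liver RNA of 4 *Agpat3* WT and 4 *Agpat3* KO mice was measured on 8 one-color arrays. The authors deposited, per array, the output of Agilent Feature Extraction 10.7.1.1, whose processed signal is the intensity of a spot after background correction, not log-transformed. They also deposited 1 table of log2 values, which equals the log2 intensity minus the 75th percentile of each array. Median background was 27 to 32 and the 75th percentile 261 to 309 intensity units, and 29886 to 31888 probes per array were well above background. Arrays have no sequencing depth, so the number of arrays limits the precision, for dim probes with signal over background.

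Outlier spots were left out, spots of a probe were averaged, and each array's 75th percentile was subtracted from its log2 values. A probe was tested if all 4 arrays of WT, of KO or of both had it well above background, and genotypes were compared with limma 3.58.1 in R 4.3.3 (two-sided). The test was tried on simulated data. The thresholds were those in the legend of the study's volcano plot, which does not say whether its p was adjusted. Symbols came from RefSeq (GRCm38.p6) through transcript accessions, which matched 32994 of 56605 probes. The scanner output names another build, so only the promoter table's own coordinates are given. The genes named are the targeted gene, the 10 zonation genes, called genes of the other lists, a fixed set of pathway, zonation and marker genes, and the 3 genes most like *Glul*. The 10 genes and the gene lists were chosen with earlier results of these data known.

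Replicate numbers were not taken as pairs in the main test, since the labels do not say that same-numbered mice belong together. Deviations of same-numbered mice correlated at 0.33, -0.11, 0.10 and 0.32 for replicates 1 to 4. Those of WT and KO mice with different numbers correlated at -0.27 to 0.27. The alternatives were normexp (offset 50, on the median spot signal, since the files hold no mean spot signal), the deposited log2 values, median and quantile normalization, no filter and a stricter filter on dim probes, outlier spots kept, a trend and robust fit, a replicate block, the probes of a gene averaged, other thresholds, the methods' t-test and each array left out.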

Additional observations from a re-analysis of the deposited data

Results flagged for a closer look

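*Cdh1* in WT replicate 4 was at a log2 signal of 2.49, far from the 3 other WT mice, of which the nearest was at 2.12 and the lowest at 2.04. Its gap to the nearest mouse was 0.831 of the range of the group, above the 95% critical value of Dixon's test for 4 values. Over all such groups examined, 28 in number, this was the 1 value that stood apart, and chance flags about 1 in 20.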

How the results depend on the processing

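None of the 9 zonation genes was called under any of the settings tried. The directions of *Oat*, *Slc1a2*, *Lgr5* and *Cdh1* held in all 20 alternatives. Those of the other 5 genes, with log2 fold changes of -0.16 to 0.06, did not, and the cause was not tested. *Oat*, at -0.16, was as close to 0 as *Tbx3*. *Rhbg* reversed in 1 alternative, without KO replicate 1, and *Tbx3* in 1, without KO replicate 3. With 1 mouse left out, the log2 fold change ranged from -0.065 to 0.133 for *Glul*, -0.320 to -0.057 for *Oat*, -0.487 to -0.295 for *Slc1a2*, -1.220 to -0.391 for *Lgr5*, -0.252 to -0.104 for *Cdh1*, -0.338 to 0.056 for *Rhbg*, -0.387 to 0.095 for *Tbx3*, -0.187 to 0.025 for *Lhpp* and -0.128 to 0.037 for *Gulo*. *Gulo* was 0.001 under quantile normalization, and *Glul* was -0.017 with slide column 1 left out.

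No gene of the receptors, the inhibitors, the destruction complex or beta-catenin and its partners was called under any setting, and the counts of the 4 other lists moved by 1 or 2. Of the Wnt ligands, 1 was called at an unadjusted p under 0.2 (*Wnt9a*), and 0 to 1 with 1 mouse left out (*Wnt5b*, without KO replicate 3). Of the general targets, 1 was called under normexp (*Ccnd1*), without slide column 1 (*Sp5*), with no minimum fold change (*Tnfrsf19*) and at an unadjusted p (*Ccnd1*), and 0 to 1 with 1 mouse left out (*Ccnd1*, without WT replicate 4). *Wnt9a*, *Wnt5b* and *Hsd17b6* were named after their values were seen. Of the other pericentral genes, 0 were called with the probes of a gene averaged. *Sult5a1* was the 1 called under median normalization, normexp and a fold change over 2, and *Cldn2* the 1 called with no filter on dim probes, without slide column 1, by the methods' t-test and at an adjusted p under 0.05. With 1 mouse left out, 0 to 2 were called. Of the periportal genes, 0 were called with no filter, without slide column 1, at an adjusted p under 0.05 and at a fold change over 2, 2 at an unadjusted p (*Hsd17b6* and *Etnppl*), and 0 to 1 with 1 mouse left out.

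With the replicate number, which is also the slide column, as a block, no call in these lists changed. Each number holds a WT and a KO mouse, so the block cannot alter a log2 fold change (*Glul* 0.064, *Slc1a2* -0.402) or its direction. The SE fell from 0.559 to 0.302 for *Lgr5*, from 0.181 to 0.086 for *Oat* and from 0.157 to 0.096 for *Glul*. Among the zonation genes tested it rose for *Cdh1* alone, from 0.104 to 0.108. For *Slc1a2* the adjusted p fell from 0.289 to 0.182 (limma), under the limit for a call. Only the size of its fold change kept *Slc1a2* uncalled. Signal over background limits *Axin2*, which gave no value.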
